A study of Mus musculus with 4 samples.

Results

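The IGF2 mRNA-binding proteins (Igf2bp1, Igf2bp2 and Igf2bp3) and 6 genes that act with them in fetal growth were followed in mouse small intestinal (SI) organoids carrying a miR-181a-5p mimic. The 9 genes, of 55487 listed in the deposited tables, were the 3 Igf2bp genes, Lin28b, Hmga2, Igf2, H19, Igf1r and Igf2r, each matched by its Ensembl identifier. Igf2bp3 was chosen by its measured fold change, being lower with the mimic, so its values in this comparison are given as a description and carry no test. The other 8 genes were listed for their role, but with earlier results of these data known. SI organoids are epithelial cultures grown from mouse intestinal crypts, and these cultures were infected with a lentivirus that expressed the miR-181a-5p mimic or, in the control group, a miRNA mimic control. Both groups were grown under puromycin selection at 2 μg/ml, so integration of a virus and the drug were shared by controls and mimic organoids. The RNA-seq experiment had 2 libraries of the mimic control (replicates 1 and 2) and 2 of the miR-181a-5p mimic (replicates 3 and 4). The labels give no age, sex or strain of the donor mice, and no source states if libraries of 1 group were infected separately, so the spread between libraries may be technical.

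IGF2BP proteins are RNA-binding proteins that hold their target mRNAs in cytoplasmic granules, where the transcripts are protected and their translation is controlled. They are abundant in the embryo, and Igf2bp1 and Igf2bp3 are low in most adult tissues and often return in tumours, which is why they are called oncofetal. LIN28B blocks the maturation of let-7 miRNAs, and let-7 in turn lowers Lin28b, Hmga2 and the Igf2bp genes. IGF2 is a fetal growth factor that signals through IGF1R and is cleared by IGF2R, and the H19 RNA comes from the imprinted locus next to Igf2.

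A mimic supplies additional mature miRNA, which pairs through its seed, bases 2 to 8, with matching words in mRNAs. The mature miR-181a-5p sequence and 2 let-7 sequences from RefSeq (GRCm38.p6) are shown because the rest of the text refers to their seeds, which stand in capitals.
mmu-miR-181a-5p: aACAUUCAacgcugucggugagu
mmu-let-7a-5p: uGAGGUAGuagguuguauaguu
mmu-miR-98-5p: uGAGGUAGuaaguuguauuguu
The miR-181b-5p, miR-181c-5p and miR-181d-5p sequences had the same seed as miR-181a-5p. The let-7b to let-7i sequences and miR-98-5p had the seed of let-7a-5p.

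The expected counts, RSEM's estimates of the reads from each gene, summed to between 31104884 and 38111731 per library. The summed level of 7 epithelial markers was 2370 to 2852 TPM (a length-normalized level that has the same total in each library). The summed level of 9 mesenchymal markers was 2.76 to 7.45 TPM, with 5 of the 9 above 0 in any library and Col1a2, Col3a1, Dcn and Lum at 0 in every library. Most of this sum was Vim, with 3.74 and 2.24 TPM in the controls, against 4.02 and 6.82 TPM with the mimic. Endothelial markers summed to at most 0.39 TPM over 3 genes, leukocyte markers to at most 0.23 TPM over 4 genes and enteric neuron and glia markers to at most 1.17 TPM over 4 genes. The libraries were whole organoids, so fewer cells of a type and less RNA per cell cannot be told apart in what follows. The labels describe poly(A) selection whereas the supplemental methods describe ribosomal RNA depletion of total RNA.

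The 9 genes stood at widely different levels. Igf2bp2 was the highest, with a mean of 54.7 TPM over the 4 libraries, followed by Igf2r with 35.1 TPM, Hmga2 with 15.9 TPM and Igf2bp3 with 7.14 TPM. Igf1r (2.06 TPM), Igf2 (1.56 TPM) and H19 (0.438 TPM) were low, and Lin28b and Igf2bp1 were at or near 0. Neighbours in this order had ranges over the 4 libraries that did not overlap, except Igf1r and Igf2, whose ranges overlapped, and Lin28b and Igf2bp1, which could not be placed. Thus 1 of the 3 Igf2bp genes was well expressed in these epithelial cultures, 1 was expressed at a lower level and 1 was at or near 0.

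**Figure D1:**
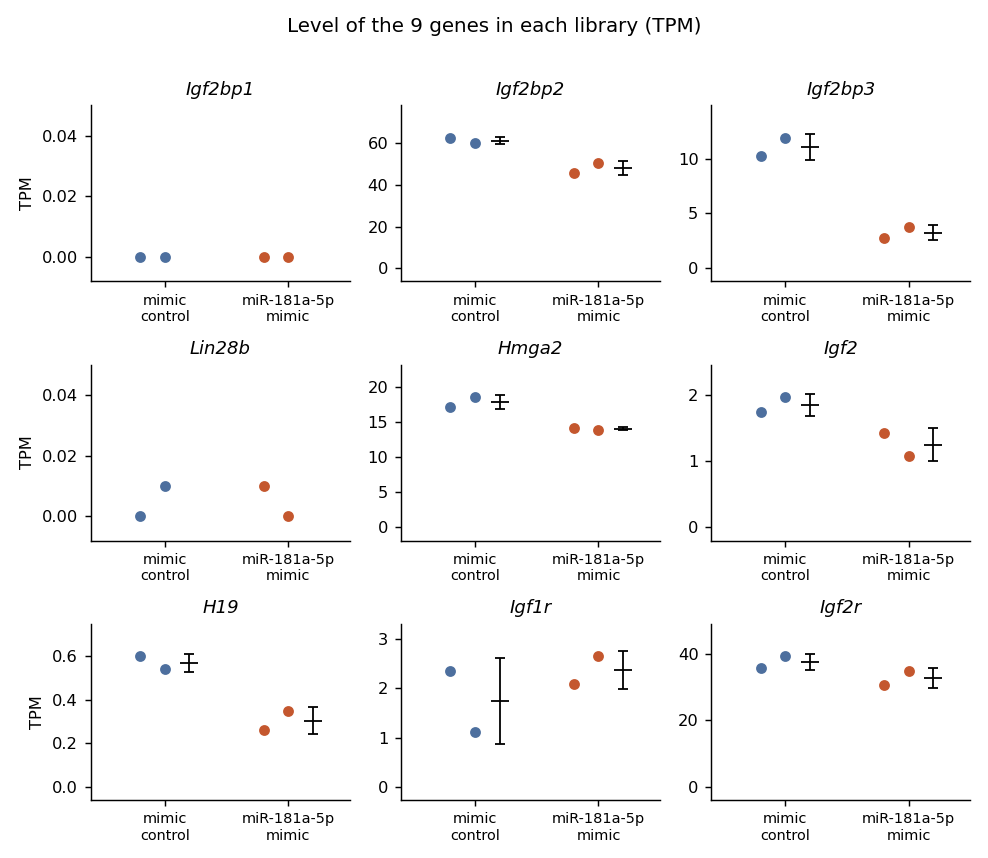
Level of each of the 9 genes in TPM (y axis, a separate scale for each gene) in the 2 mimic control libraries (blue points) and the 2 miR-181a-5p mimic libraries (orange points), with the mean and SD of each group in black where the gene was above 0.05 TPM. The Igf2bp3 points with the mimic sit at 2.74 and 3.72 TPM, below the controls at 10.22 and 11.87 TPM, and the Igf1r points of the groups overlap.

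Rounded expected counts were compared between the groups in edgeR (quasi-likelihood test), with Benjamini-Hochberg adjustment over 17155 genes that passed edgeR's filter on low counts. A gene was called when its adjusted p was under 0.05 and its fold change at least 2. By this rule 101 genes, 0.589% of those tested, were called higher with the mimic and 253, 1.47%, were called lower. Log2 fold changes are mimic over control, and normalized CPM are counts relative to the library total after TMM scaling. Of the 9 genes, 7 entered the fit. Igf2bp1 and Lin28b did not. Of the 6 tested genes other than Igf2bp3, 0 were called in either direction by edgeR's quasi-likelihood, likelihood-ratio or exact test, by DESeq2 or by limma on TPM. At an adjusted p under 0.05 whatever the fold change, the count was 0 of 6, beside 3.57% of all tested genes. At an unadjusted p under 0.05, 5 of the 6 passed in the quasi-likelihood test and all 5 were lower, beside 24.8% of all tested genes in either direction and 13.0% lower. The same 5 had groups that did not overlap, with both mimic libraries below both controls, as did 29.5% of all tested genes. The median log2 fold change of the 6 genes was -0.39, against -0.01 over all genes tested. The genes were chosen with results of these data known, so these counts describe them and test nothing about the set.

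Igf2bp3, an oncofetal member of the RNA-binding family, lies on chromosome 6 of GRCm38 from 49085223 to 49214957 on the minus strand. Its expected counts were 1146 and 1016 in the mimic controls and 202 and 259 with the mimic. In TPM it stood at 10.22 and 11.87 in the controls, against 2.74 and 3.72 with the mimic. Both mimic libraries were far below both controls on either scale. Normalized CPM were 31.3 ± 2.05 (SD, n = 2) in the controls, against 6.86 ± 0.58 (SD, n = 2) with the mimic. The log2 fold change was -2.19 (standard error 0.14), which is 4.56-fold lower, and its rank from the most negative value among the tested genes was 108. With each library left out in turn, the log2 fold change stayed between -2.28 and -2.10. As Igf2bp3 was picked for its fall in these same libraries, neither the standard error nor this range tests it.

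This value also depends on how reads were divided between Igf2bp3 and a neighbouring gene. Malsu1, which encodes a mitochondrial ribosome assembly factor, lies on the plus strand from 49073795 to 49086751, and its end covers 1529 bases of the end of Igf2bp3. Those bases make up 72.2% of the annotated 3' UTR of Igf2bp3 of 2119 bases, and 33.7% of all runs of 100 bases in its single protein-coding transcript were also found, on the opposite strand, in Malsu1. Whether the counting used strand is not stated. The expected counts of Igf2bp3 were not whole numbers in any of the 4 libraries, whereas the sums of Igf2bp3 and Malsu1 counts came to 2016, 1857, 783 and 948. RSEM thus divided reads between these genes, and a read from the shared bases could have been given to either. As the genes lie on opposite strands, strand did not keep their reads apart in the counting.

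Malsu1 itself had 870 and 841 expected counts in the controls, against 581 and 689 in mimic libraries. The fitted change on the log2 scale was -0.39 (standard error 0.13, adjusted p = 0.132 in the edgeR quasi-likelihood fit), so it was not called. In TPM, Malsu1 was 17.80 and 17.56 in the controls, against 17.98 and 18.46 with the mimic, a different order of the groups from that of its counts. For the summed counts, normalized CPM were 52.6 and 59.9 in the controls, against 25 and 26.6 with the mimic, and the log2 fold change was -1.12. The sum, which holds every read whichever gene it came from, was thus lower in both mimic libraries, by a smaller factor than Igf2bp3 alone. A smaller factor was bound to follow from adding a gene whose own counts changed less. The sum was computed after the data had been seen.

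The lengths behind the estimates moved as well. The ratio of a gene's expected count to its TPM gives the mean transcript length that RSEM used, and it was scaled here on 349 to 370 genes per library with a single transcript of at least 2000 bases. For Igf2bp3 this length was 3550 and 3393 bases in the controls, against 2880 and 2609 bases in mimic libraries. For Hmga2 it was between 3673 and 3699 bases in all 4 libraries and for Igf2bp2 between 2863 and 3037 bases. It varied more for Igf1r, with 9306 and 10977 bases in the controls, against 9828 and 11009 with the mimic. For Igf2 it was 3601 and 3644 bases in the controls, against 3105 and 3814 with the mimic. Igf2bp3 thus had a shorter implied transcript in both mimic libraries, but implied lengths also varied between libraries of a group in other members. The annotation gives Igf2bp3 a coding transcript of 4345 bases, a retained-intron form of 4152 bases and 3 shorter forms of 512 to 711 bases. Beside this shift, the ratio of the mean TPM, mimic over control, was 0.292 where the fitted fold change from counts was 0.219. The part of read assignment in the Igf2bp3 difference was not tested, and the sum above cannot measure it.

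**Figure D2:**
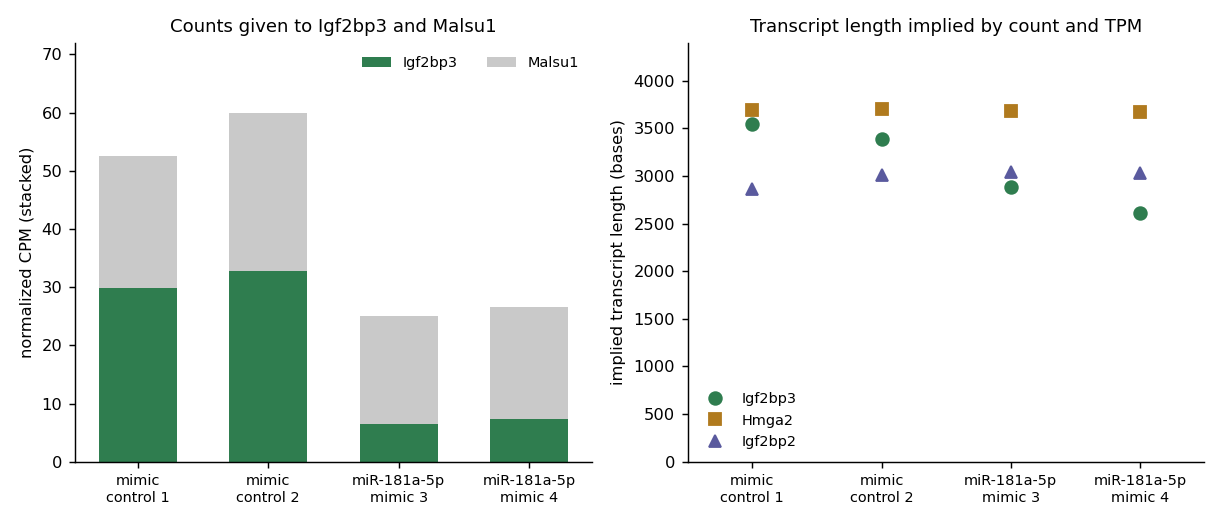
Left, normalized CPM (y axis, stacked bars from 0) given to Igf2bp3 (green) and to the overlapping gene Malsu1 (grey) in each of the 4 libraries on the x axis. Right, mean transcript length in bases implied by the ratio of expected count to TPM for Igf2bp3, Hmga2 and Igf2bp2. The Igf2bp3 share of the stack is smaller with the mimic, and its implied length is 2880 and 2609 bases with the mimic against 3550 and 3393 in the control libraries, while that of Hmga2 is between 3673 and 3699 bases. Igf1r and Igf2, whose implied lengths varied more between libraries than that of Hmga2, are not drawn.

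Igf2bp2, the family member that stays expressed in many adult tissues, lies on chromosome 16 from 22059009 to 22163299 on the minus strand. Its level was 62.49 and 59.93 TPM in the controls, against 45.76 and 50.51 TPM with the mimic. The groups did not overlap, and on the normalized CPM scale the libraries of a group lay close together, at 146.9 ± 0.51 (SD, n = 2) in the controls, against 114.3 ± 0.88 (SD, n = 2) with the mimic. The log2 fold change was -0.36 (95% interval -0.57 to -0.16, adjusted p = 0.0703 in the edgeR quasi-likelihood fit), a value 1.29-fold lower that did not pass the threshold. By edgeR's likelihood-ratio test, its exact test and DESeq2 the adjusted p was 0.0316, 0.0327 and 0.0471, with a change far under 2-fold in each. Over all alternatives the log2 fold change of Igf2bp2 lay between -0.37 and -0.34 and the adjusted p between 0.0316 and 0.589. No other annotated gene overlapped Igf2bp2.

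Igf2bp1, on chromosome 11 from 95957163 to 96005940, had a single count in control replicate 1 and 0 in the other 3 libraries. A count of 0 allows up to 3 counts, which is 0.0787 to 0.0964 CPM at the depth of these libraries, for counting error only. Lin28b, on chromosome 10 from 45376620 to 45486395, was given 0 counts in control replicate 1 and mimic replicate 4 and 1 count in each of the other 2 libraries. Both genes were at or under that floor in every library, so no fold is given. A difference in either gene was not detectable at this depth.

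Hmga2 encodes an architectural chromatin protein of fetal tissues and is a well-known let-7 target. It lies on chromosome 10 from 120361275 to 120476469 on the minus strand. Its level was 17.15 and 18.48 TPM in the controls, against 14.16 and 13.90 TPM with the mimic, so the mimic libraries were both lower. Normalized CPM were 53.9 ± 2.4 in the controls, against 40.4 ± 3.07 with the mimic (SD, n = 2 each). This gave a log2 fold change of -0.41 (95% interval -0.67 to -0.16, adjusted p = 0.0773 in the edgeR quasi-likelihood fit), 1.33-fold lower. It passed an adjusted p of 0.05 only in edgeR's likelihood-ratio test (0.0242) and exact test (0.0252), without reaching 2-fold, and over all its alternatives the adjusted p ranged from 0.0242 to 0.550. Its counts were not whole numbers, and 0.65% of its runs of 100 bases were shared with the antisense gene 1700006J14Rik, which had 19 to 58.9 counts.

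Igf2, the growth factor gene, lies on chromosome 7 from 142650766 to 142666816 on the minus strand. It had 198 and 181 counts in the controls, against 114 and 110 in mimic libraries. In TPM these were 1.74 and 1.97 against 1.43 and 1.08, a low level with groups that did not overlap. The log2 fold change was -0.71 (95% interval -1.20 to -0.22, adjusted p = 0.10 in the edgeR quasi-likelihood fit), 1.63-fold lower and not past the threshold. A readthrough gene, Gm49394, shared 59.3% of the 100-base runs of Igf2 and was given 9.25 counts in mimic replicate 3 and 0 in the other libraries. The antisense gene Igf2os had 29 and 10 counts in the controls, against 8.95 and 4 with the mimic (log2 fold change -1.50, adjusted p = 0.193 by edgeR), and it shared a single run with Igf2.

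H19, a long non-coding RNA that is reciprocally imprinted with Igf2, lies on chromosome 7 from 142575529 to 142578143. It had 36 and 23 counts in the controls, against 5 and 17 in mimic libraries, fewer than any other tested member. The mimic libraries were both below the controls but lay further from each other than the controls did. For H19 the fitted log2 fold change was -1.36 (standard error 0.49, 95% interval -2.51 to -0.21, adjusted p = 0.150 in the edgeR quasi-likelihood fit). It was -2.38 without mimic replicate 4 and -0.82 without mimic replicate 3, so the size of the H19 difference rested on which mimic library was kept. Mir675, the miRNA gene inside H19, was at 0 counts in all 4 libraries.

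The receptor genes stood at different levels, Igf2r well above Igf1r. Igf1r encodes the tyrosine kinase receptor for IGF1 and IGF2 and lies on chromosome 7 from 67952827 to 68233668. The control libraries held 694 and 310 Igf1r counts and the mimic libraries 529 and 779. The groups overlapped, because control replicate 1 lay between the mimic libraries, while control replicate 2 was below both. Its level was 2.36 and 1.12 TPM against 2.10 and 2.65 TPM. The log2 fold change was 0.46 (95% interval -0.16 to 1.08, adjusted p = 0.323 in the edgeR quasi-likelihood fit). Without control replicate 1 it became 0.95 with an adjusted p of 0.0328 by edgeR, and without control replicate 2 it was 0.11, so the value of Igf1r depended on which control was kept. Over its alternatives the adjusted p ranged from 0.0328 to 1.0.

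Igf2r, the receptor that carries IGF2 to lysosomes, lies on chromosome 17 from 12682406 to 12769664 on the minus strand. Its level was 35.88 and 39.22 TPM in the controls, against 30.64 and 34.76 TPM with the mimic. Both mimic libraries were below both controls, by a narrow margin. Igf2r had a log2 fold change of -0.29 (95% interval -0.52 to -0.06, adjusted p = 0.127 in the edgeR quasi-likelihood fit), 1.22-fold lower, and it did not pass the threshold under any alternative. Airn, the antisense non-coding RNA that overlaps Igf2r at its imprinted locus, had 394 and 284 counts in the controls, against 134 and 185 in mimic libraries. Its groups did not overlap and it was called lower (log2 fold change -1.03, standard error 0.19, adjusted p = 0.0336 in the edgeR quasi-likelihood fit). No run of 100 bases was shared between the annotated transcripts of Igf2r and Airn. However, strand did not keep reads apart at Igf2bp3 and Malsu1, so reads from the introns of Igf2r and from Airn cannot be told apart. Airn was called in 9 of 15 alternatives. It was not called by limma on TPM, without the filter, without control replicate 1 (log2 fold change -0.95, adjusted p = 0.0523) or without mimic replicate 3 (-0.90, adjusted p = 0.110), and its adjusted p in these edgeR, DESeq2 and limma fits ranged from 0.000391 to 0.589.

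**Figure D3:**
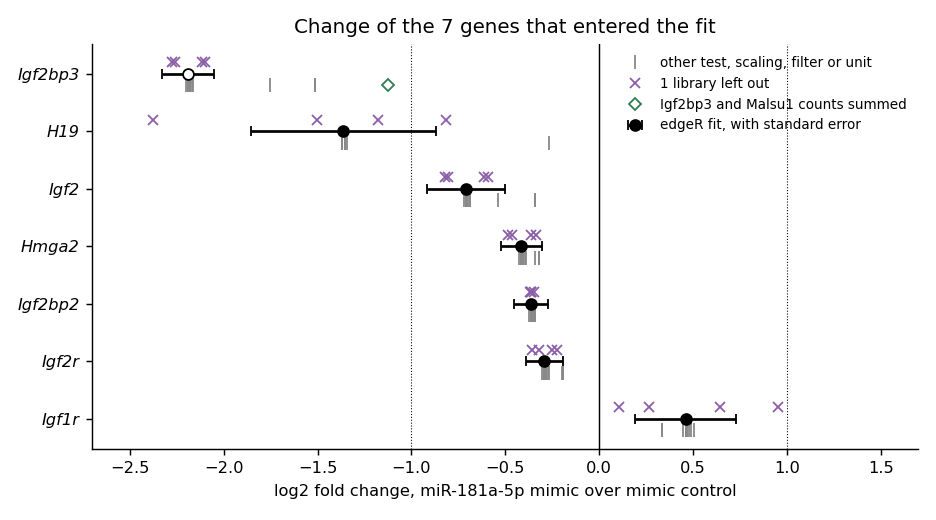
Log2 fold change (x axis, miR-181a-5p mimic over mimic control) of the 7 genes that entered the fit. Circles give the edgeR fit with its standard error (open for Igf2bp3, which was picked for its fall), grey ticks other tests, scalings, filters or units, crosses the fits with 1 library left out, and the diamond the summed counts of Igf2bp3 and Malsu1. Dotted lines mark a 2-fold change. Only Igf2bp3 and H19 have a point estimate beyond -1, and the H19 crosses spread from -2.38 to -0.82.

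The seeds shown above were sought as words in the longest annotated 3' UTR of each gene (GENCODE mouse release M21, GRCm38). Seed matches were not themselves used to choose the genes. Several members are known let-7 targets, as described above, so their let-7 matches are not independent of the choice and test nothing. A 7mer-m8 match pairs with bases 2 to 8 of the miRNA, TGAATGT for miR-181 and CTACCTC for let-7, and an 8mer match has an A after that word. Only the transcript strand was searched, and each 8mer match also holds a 7mer-m8 match. Among 12913 tested genes with a 3' UTR, 19.1% held a miR-181 7mer-m8 match and 6.26% an 8mer, and 11.9% held a let-7 7mer-m8 match and 4.27% an 8mer.

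Of the 8 protein-coding members, 3 held a miR-181 match, namely Igf2bp1 and Lin28b, which were at or under the floor, and Igf2bp2. Igf2bp3, Hmga2, Igf2, Igf1r and Igf2r held none of these letters in the window searched. The Igf2bp2 match was an 8mer that began 29 bases after the stop codon. A let-7 match was present in 7 of the 8, all but Igf2, and each of these 7 held at least 1 8mer. The counts of 3 and 7 members were the same when all annotated 3' UTR bases were searched. Long 3' UTRs hold more matches by length alone, and those of Igf2bp1, Lin28b and Igf1r were longer than those of 97.9%, 93.6% and 98.7% of the genes searched.

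The matches that bear on the expressed genes are shown as 30 bases of the transcript strand, with the miRNA match in capitals, from GENCODE transcripts on GRCm38.
Igf2bp2, miR-181 8mer, chr16:22060757-22060786, minus strand: cacagcaccagcaagcaaccgaTGAATGTA
Igf2bp2, let-7 8mer, chr16:22059473-22059502, minus strand: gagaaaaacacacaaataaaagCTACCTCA
Igf2bp3, let-7 8mer, chr6:49086787-49086816, minus strand: ttaaacgtgcatttttactcaaCTACCTCA
Hmga2, let-7 8mer, chr10:120364224-120364253, minus strand: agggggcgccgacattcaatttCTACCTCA
Igf1r, let-7 8mer, chr7:68229103-68229132, plus strand: ggcttgtttttcaaacatttatCTACCTCA
Igf2r, let-7 8mer, chr17:12683036-12683065, minus strand: gaaggcccacctgctccgtgccCTACCTCA
The Igf2bp3 match lay 548 bases after the stop codon and 35 bases outside the stretch shared with Malsu1. Hmga2 held 4 let-7 matches along its 3' UTR of 3014 bases, the first of them the 8mer shown, 58 bases after the stop codon. For comparison, Igf2bp1 held the most 8mers of these genes, 3 for let-7, and 1 of them is shown with the first miR-181 match of Lin28b.
Igf2bp1, let-7 8mer, chr11:95961778-95961807, minus strand: aggcagtgctgtgcgaagtaaaCTACCTCA
Lin28b, miR-181 7mer-m8, chr10:45380303-45380332, minus strand: tacgtagctccagaaaagacaaTGAATGTg
A match is a description of the sequence, and binding of either miRNA was not measured. Mature let-7 and miR-181 were not measured by these libraries, and 12 listed let-7 and miR-98 precursor genes were at 0 counts in every library.

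**Figure D4:**
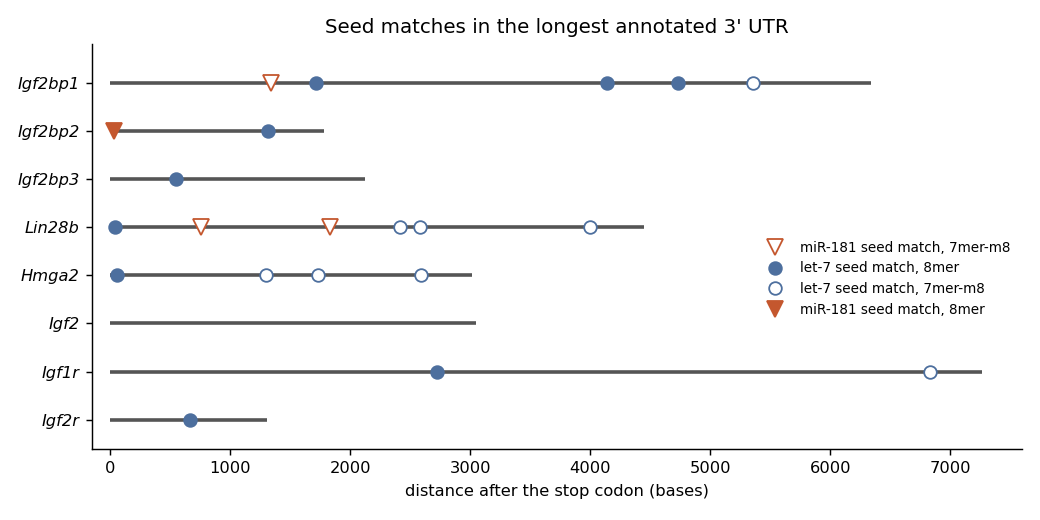
Positions of miR-181 (orange triangles) and let-7 (blue circles) seed matches along the longest annotated 3' UTR of the 8 protein-coding members, as the distance in bases after the stop codon (x axis). Filled symbols are 8mers and open symbols 7mer-m8 matches, and each line ends where the 3' UTR ends. The line of Igf2 carries no symbol and that of Igf2bp3 a single let-7 8mer at 548 bases.

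The genes around the members were followed in 9 lists, which together held 132 genes, of which 131 were listed and 90 tested. Of the 90, 0 were called higher and 3 called lower (Irs2, Pappa2 and Airn) by the quasi-likelihood test, beside 0.589% and 1.47% of all tested genes. Whatever the fold change, 5 of the 90 had an adjusted p under 0.05, 1 higher and 4 lower, beside 3.57% of all tested genes. At an unadjusted p under 0.05 there were 24 higher and 9 lower of the 90 list genes in that test, beside 11.8% higher and 13.0% lower over all genes tested. DESeq2 called 0 higher and 2 lower, edgeR's likelihood-ratio test 3 and 3, and limma on log2(TPM + 1) 0 and 0. The median log2 fold change over the lists was 0.01, against -0.01 over all genes tested.

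The IGF ligand, receptor and signalling list held 20 genes, of which 15 were tested, 0 were called higher and 1 was called lower. The ligand genes Igf1, Ins1 and Ins2 were at 0 in every library, so Igf2 was the only ligand gene of the family with counts. Irs2, the adaptor that carries insulin and IGF signals from the receptor, stood at 16.62 and 12.91 TPM in the controls, against 7.07 and 7.62 TPM with the mimic. The mimic libraries were close to each other and both lower, and Irs2 fell by 1.07 on the log2 scale (standard error 0.14, adjusted p = 0.0127 in the edgeR quasi-likelihood fit). Irs2 was called in 11 of 15 alternatives, and not by limma on TPM or without control replicate 1 (log2 fold change -0.88, under 2-fold), with an adjusted p between 4.87e-09 and 0.551. Insr, the insulin receptor gene, was 32.29 and 30.92 TPM in the controls, against 20.86 and 24.04 TPM with the mimic. Its log2 fold change of -0.52 (standard error 0.10) had an adjusted p of 0.0448 by the quasi-likelihood test, under 2-fold and therefore not called. The most expressed genes of the list, the kinase gene Akt1 and the PI3-kinase subunit gene Pik3r1, had log2 fold changes of 0.46 (adjusted p = 0.0599) and -0.02 (adjusted p = 0.898) by edgeR. The median of the list was 0.01.

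IGF binding proteins hold IGFs outside the cell, and the PAPP-A proteases cut some of them to release the ligand. Of 14 such genes 8 were tested, 0 called higher and 1 called lower, with a median log2 fold change of -0.72. That median rests partly on low counts, since Igfbp3, Igfbp5, Stc1 and Igfals had at most 31 counts in any library. The largest fall was that of Igfbp2 (log2 fold change -1.94, standard error 0.70, adjusted p = 0.150 in the edgeR quasi-likelihood fit). Igfbp2 had 145 and 42 counts in the controls, against 5 and 41 with the mimic. Pappa2, a protease that cuts IGFBP3 and IGFBP5, had 545 and 354 counts in the controls, against 174 and 257 in mimic libraries. Its groups did not overlap, and it fell by 1.0 on the log2 scale (standard error 0.20, adjusted p = 0.0421 in the edgeR quasi-likelihood fit), at the edge of both thresholds. Pappa2 was called in 6 of 15 alternatives. It was not called without control replicate 1 (log2 fold change -0.84, adjusted p = 0.0733 by edgeR) or without mimic replicate 3 (-0.82, adjusted p = 0.122), nor with RLE factors, library totals, no filter, DESeq2 or limma, and its adjusted p ranged from 0.000785 to 0.953. Stc2, which encodes an inhibitor of these proteases, was 8.77 and 17.51 TPM in the controls, against 26.12 and 29.24 TPM with the mimic, higher in both mimic libraries but with an adjusted p of 0.0782 by edgeR. Igfbp4 was 20.87 and 6.87 TPM in the controls, against 4.19 and 7.46 TPM with the mimic (log2 fold change -1.16, adjusted p = 0.185 by edgeR). Its groups overlapped, and control replicate 1 alone was high.

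Among the genes that process let-7 with LIN28, 9 of 11 were tested and 0 were called in either direction, with a median log2 fold change of -0.04. Hnrnpa1 and Khsrp, RNA-binding proteins that act on let-7 precursors, were the most expressed, with log2 fold changes of -0.20 (adjusted p = 0.327) and 0.19 (adjusted p = 0.250) by edgeR. Of 16 let-7 precursor and host genes 15 were listed and 2 were tested, the host genes Huwe1 (log2 fold change -0.03) and Wdr82 (0.26), and 0 were called. Of 22 reported let-7 targets outside the members, 20 were tested and 1 was called, Irs2 again, with a median of 0.02. Whatever the fold change, 3 of the 20 had an adjusted p under 0.05 by edgeR, 1 higher and 2 lower. Over all tested genes this share was 3.57%. The 2 most expressed of these, Hmga1 and Ccnd2, had log2 fold changes of -0.11 (adjusted p = 0.510) and 0.03 (adjusted p = 0.889) by edgeR.

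Of 20 mRNAs reported to be bound by IGF2BP proteins, 18 were tested and 0 were called in either direction, with a median log2 fold change of 0.09. Whatever the fold change, 1 of the 18 was higher and 0 were lower at an adjusted p under 0.05 by edgeR. Over all tested genes, 3.57% passed in either direction. Actb, the classical target of IGF2BP1, was between 1434 and 1875 TPM with overlapping groups (log2 fold change 0.08, adjusted p = 0.768 by edgeR), and Hmga1, given with the let-7 targets, was the next most expressed. Myc, whose mRNA these proteins stabilize, had a log2 fold change of 0.29 (adjusted p = 0.161 by edgeR). IGF2BP proteins also read the m6A mark on mRNA. All 14 other m6A writers, erasers and readers were tested and 0 were called, with a median of 0.04. The demethylase gene Alkbh5 and the writer subunit gene Wtap, the most expressed of them, had log2 fold changes of 0.41 (adjusted p = 0.198) and 0.28 (adjusted p = 0.119) by edgeR.

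Of 20 imprinted growth genes 12 were tested, and Airn was the 1 that was called. The median was -0.12. Gnas, which encodes a G protein subunit, and Impact, a translation regulator gene, were the most expressed and had log2 fold changes of -0.12 (adjusted p = 0.542) and 0.07 (adjusted p = 0.819) by edgeR. Of 12 other oncofetal genes 4 were tested and 0 were called, with a median of -0.30. Hmga1 was again the most expressed, followed by Afp. Afp, the fetal serum protein alpha-fetoprotein, was 12.17 and 10.77 TPM in the controls, against 11.12 and 3.40 TPM with the mimic, so mimic replicate 4 alone was low (log2 fold change -0.73, adjusted p = 0.348 by edgeR).

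**Figure D5:**
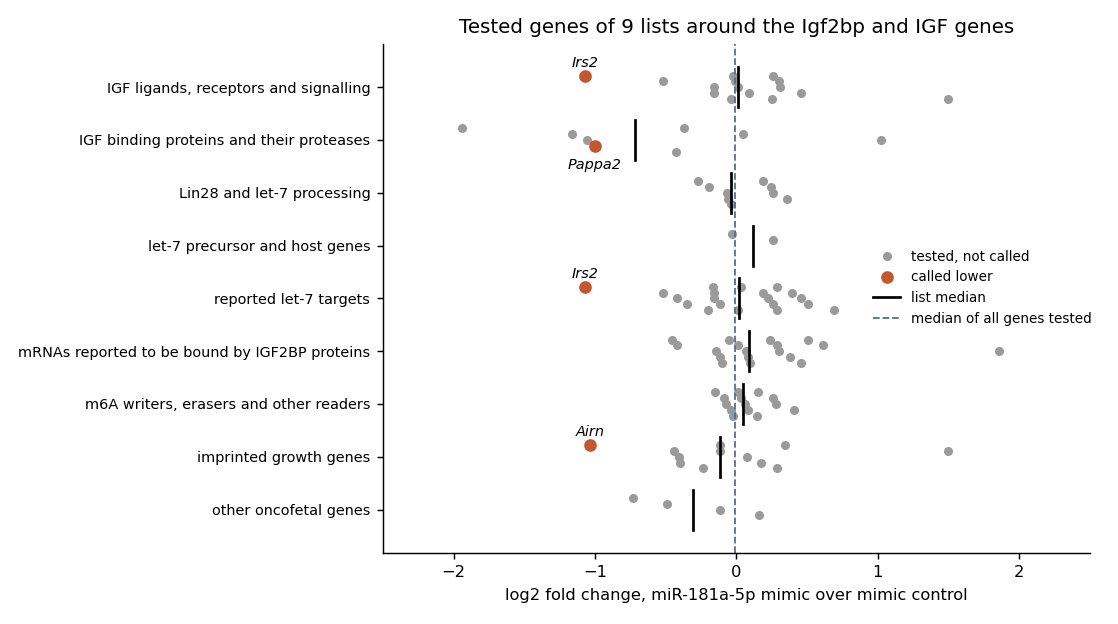
Log2 fold change (x axis, miR-181a-5p mimic over mimic control) of each tested gene in the 9 lists (rows), with the list median as a black bar and the median of all genes tested as a dashed line. Orange points with names were called lower (Irs2, which stands in 2 lists, Pappa2 and Airn), grey points were not called, and no list gene was called higher.

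Across the 4 libraries, the genes with the pattern most like that of Igf2bp3 were sought as the smallest Euclidean distance between profiles of log2 normalized CPM, each centred on its mean, among 17062 tested genes above 0 in every library. They were Zfp987 (distance 0.119), Kcns3 (0.159), Rps4l (0.167), B3gnt7 (0.183) and Rdh7 (0.196). Zfp987 encodes a zinc finger protein, Kcns3 a potassium channel subunit, Rps4l a copy of a ribosomal protein, B3gnt7 a glycosyltransferase and Rdh7 a retinol dehydrogenase. Their log2 fold changes lay between -2.32 and -2.13, close to that of Igf2bp3, which the selection by profile fixed in advance. Rdh7 was the most abundant, at 65.9 and 66.5 normalized CPM in the controls, against 15.5 and 14.8 with the mimic. The likeness rests on 4 libraries in 2 groups. Zfp987, Rps4l and Rdh7 belong to families with close copies, so their counts could hold reads of other genes.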

How the data were processed

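RNA-seq libraries of 2 mimic control and 2 miR-181a-5p mimic cultures of mouse SI organoids were analysed. Trimmomatic was used by the authors on the single reads and RSEM, with GRCm38 transcripts, for quantification, and they deposited the expected count per gene, without normalization. The authors also deposited TPM, scaled to the same total in each library. The annotation release is not given in the sources used here. Per table, 3 further columns matched no sample and were not used. Expected counts were rounded and fitted in edgeR 4.0.16 (R 4.3.3; filterByExpr, TMM, estimateDisp, and glmQLFit in its current form), with Benjamini-Hochberg adjustment over all genes tested. The standard error is the size of the log2 fold change divided by the square root of F. The steps were tested on simulated data. The libraries held at least 31104884 counts, and 0.333 is the smallest p that an exact permutation test of 2 against 2 libraries allows. Alternatives were edgeR's likelihood-ratio and exact tests, DESeq2 1.42.0, RLE factors, library totals, other filters, limma 3.58.1 on log2(TPM + 1) or log2(TPM + 0.1), and leaving out each library. The summed counts of Igf2bp3 and Malsu1 and the legacy quasi-likelihood form were added after seeing the data. The members and lists were chosen with earlier results of these data known. Named genes were all 9 members and, from each list, every called gene and the 2 tested genes with the highest mean TPM. Insr, Myc, Malsu1, the genes that overlap members and all further list genes were named after their values were seen. Annotation came from GENCODE mouse release M21. Protein sequences and mature miRNA levels were not analysed here. Plots were drawn with matplotlib 3.10.9.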

Additional observations from a re-analysis of the deposited data

How the results depend on the processing

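The direction of all 7 fitted members was the same under every alternative run. For Igf2bp3 the log2 fold change was -1.52 by limma on log2(TPM + 1), with or without a filter, and -1.75 on log2(TPM + 0.1). The summed counts of Igf2bp3 and Malsu1, which are a different feature, gave -1.12. None of the other members was called under any alternative. H19 could not be fitted with at least 10 counts in every library or in the filtered TPM fits, and DESeq2 gave it no adjusted p. The counts of called genes moved more. Against 101 higher and 253 lower genes, edgeR's likelihood-ratio test gave 214 and 559, its exact test 200 and 530, and the fit without a filter on low counts 50 and 108. Limma gave 30 and 41 on log2(TPM + 1), 11 and 16 on log2(TPM + 0.1), and 4 and 1 for unfiltered log2(TPM + 1). With 1 library left out there were 115 to 230 higher and 166 to 661 lower genes, the most without control replicate 2, with the lone library of a group assumed to vary like the others. Against 0 higher and 3 lower list genes, the likelihood-ratio and exact tests each added 3 higher genes (Abcb1b, Grb10 and Stc2), the fit without a filter gave 1 lower gene (Irs2) and all 3 limma fits gave 0 lower genes. Leaving out 1 library gave 0 to 1 higher and 0 to 5 lower list genes, with 0 lower without control replicate 1, and Afp, Igfbp2, Igfbp4, Grb10 and Stc2 each called in at least 1 of these fits. The cause of these changes was not tested. No paired analysis was possible because the groups share no replicate numbers. Igf2bp1 and Lin28b had at most 1 count in a library, so no difference was detectable at this depth.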
